A study of Mus musculus with 12 samples.

Results

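The annexins described here are 8 genes, Anxa1, Anxa2, Anxa3, Anxa4, Anxa5, Anxa6, Anxa7 and Anxa11, of the 18097 gene symbols on the array, and they are read by 10 probes. They were chosen by gene symbol as the family around Anxa3, which was itself picked from the measured values because its mean was higher after amitriptyline (AMI) in both tissues, as was that of 32.8% of the probes tested in both. The values of Anxa3 under AMI are therefore given as a description, without a test. The 12 arrays measured RNA from hippocampus or cortex of male 3xTgAD mice aged 18 months, a transgenic Alzheimer's disease model that carries mutant human amyloid precursor protein, presenilin and tau genes, with the precursor protein and tau transgenes driven in neurons by a Thy1 cassette. From the age of 14 months the AMI group drank amitriptyline hydrochloride at 100 µg per g of body weight for 4 months, and the vehicle group drank plain water. All 4 groups (3 arrays each) carry the same transgenes, no wild-type mouse was measured here, and which mouse gave which array, or whether RNA was pooled, is not stated. The methods also describe bromodeoxyuridine injections in treated and control mice, without saying whether those mice gave these arrays. The p-values below therefore measure the spread between arrays, which may be technical.

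Annexins are cytosolic proteins that bind acidic phospholipids when calcium rises, through a conserved core of annexin repeats, and they take part in membrane repair, vesicle traffic and the control of inflammation. Their amino-terminal tails differ and recruit partners, several of them small calcium-binding S100 proteins. In the brain they are known mostly from glia, vessels, meninges and choroid plexus, and some members are also present in neurons.

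Signals are given as z-normalized log2 values, in which 0 is the mean of an array. On an array of average SD 1 unit is a doubling of signal before background subtraction, and on other arrays it is so only roughly. Folds below are taken from these values and are not ratios of raw signals. A probe counts as detected at a detection p of 0.05 or less. Between 49.0% and 51.7% of probes were detected per array, and the lowest Pearson correlation between arrays of one group was 0.986. A marker list is summarised by the mean of its genes detected on at least 6 of 12 arrays. The labels fit the tissues by list means. The 8 detected of 10 hippocampal markers averaged between 1.97 and 2.43 on hippocampal arrays and between 0.68 and 0.87 on cortical arrays. The 7 detected of 10 cortical markers averaged between 1.75 and 1.93 and between 2.25 and 2.52. Single markers did not all follow. Of 7 hippocampal markers tested in both tissues, 5 had a higher mean in the hippocampus and 2 a lower one, in vehicle and AMI mice alike. Of 7 cortical markers, 5 had a lower mean there and 2 a higher one in vehicle mice. In AMI mice these were 4 and 3. On hippocampal vehicle replicate 3 the choroid plexus list (6 of 8 markers detected, without Folr1 and Kcnj13) averaged 3.06, against 0.18 to 0.54 on the other 5 hippocampal arrays, and the meningeal and fibroblast list (6 of 9 detected, without Col1a1, Col1a2 and Islr) averaged 2.11, against 0.87 to 1.19. Cortical vehicle replicate 3 stood apart from its group in Anxa6 and Anxa11. Where leaving out either array moved an annexin difference between AMI and vehicle by over 1.5 times or parted its groups, the value without it is given beside it. Which share of a difference comes from fewer cells of a type and which from less RNA per cell cannot be told apart in these tissue samples.

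Anxa3 and Anxa11 are each read by a pair of probes of 50 bases, and their probes are shown because the results turn on how far they give the same answer. The first 30 bases of each, as the array annotation gives them 5′ to 3′, are as follows.
Anxa3 ILMN_1241171: gacagaacctgtctgcctgataggcattgg
Anxa3 ILMN_3135781: gccctgatggtggaccgcctcaaaatctct
Anxa11 ILMN_2666669: ctggcattggccaggaaacgtcccaaagag
Anxa11 ILMN_3107156: gggaggccttgtgacggtactgtggtgtct
The annotation puts the Anxa3 probes on the plus strand of chromosome 5, ILMN_1241171 from 97274692 to 97274741 and ILMN_3135781 from 97274618 to 97274667, so their starts lie 74 bases apart and they do not overlap. The Anxa11 probes lie on the plus strand of chromosome 14, ILMN_2666669 from 26705587 to 26705636 and ILMN_3107156 from 26706016 to 26706065. The genome build of these positions is not named in the files. No other probe of the array shared a run of 25 bases with any of the 10 annexin probes.

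Of the 10 probes, 6 were detected on all 12 arrays, and they cover 5 genes: Anxa2, Anxa3 with both probes, Anxa5, Anxa6 and Anxa11 with ILMN_3107156. Anxa1, the glucocorticoid-induced ligand of formyl peptide receptors, was detected on 0 of 12 arrays, with raw signals between 45.4 and 72.4 that were 0.78 to 1.003 times the median of undetected probes on the same array. Anxa7, also called synexin and studied for membrane fusion, was detected on 0 arrays too, at 0.72 to 0.99 times that median. Anxa4, best known from secretory epithelia, was detected on 2 arrays, cortical AMI replicate 1 and cortical vehicle replicate 3, at 1.16 to 1.47 times the median. These 3 genes thus gave no usable level on this array, which does not show that they were absent. The remaining annexins on the array, Anxa8 (with 2 probes), Anxa9, Anxa10 and Anxa13, were outside the chosen family. Of these, Anxa9 was detected on 2 arrays and the others on 0.

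The probes of Anxa11 disagreed about whether the gene was measurable. ILMN_2666669 was detected on 2 cortical arrays (vehicle replicate 2 and AMI replicate 2) and on 0 hippocampal arrays, whereas ILMN_3107156 was detected on all 12 and read 4.06 to 18.5 times the median of undetected probes. ILMN_2666669 read 1.02 to 1.46 times that median, so no level is drawn from it. Both Anxa3 probes were detected on all 12 arrays. Only the probes detected on every array are described from here on.

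**Figure D1:**
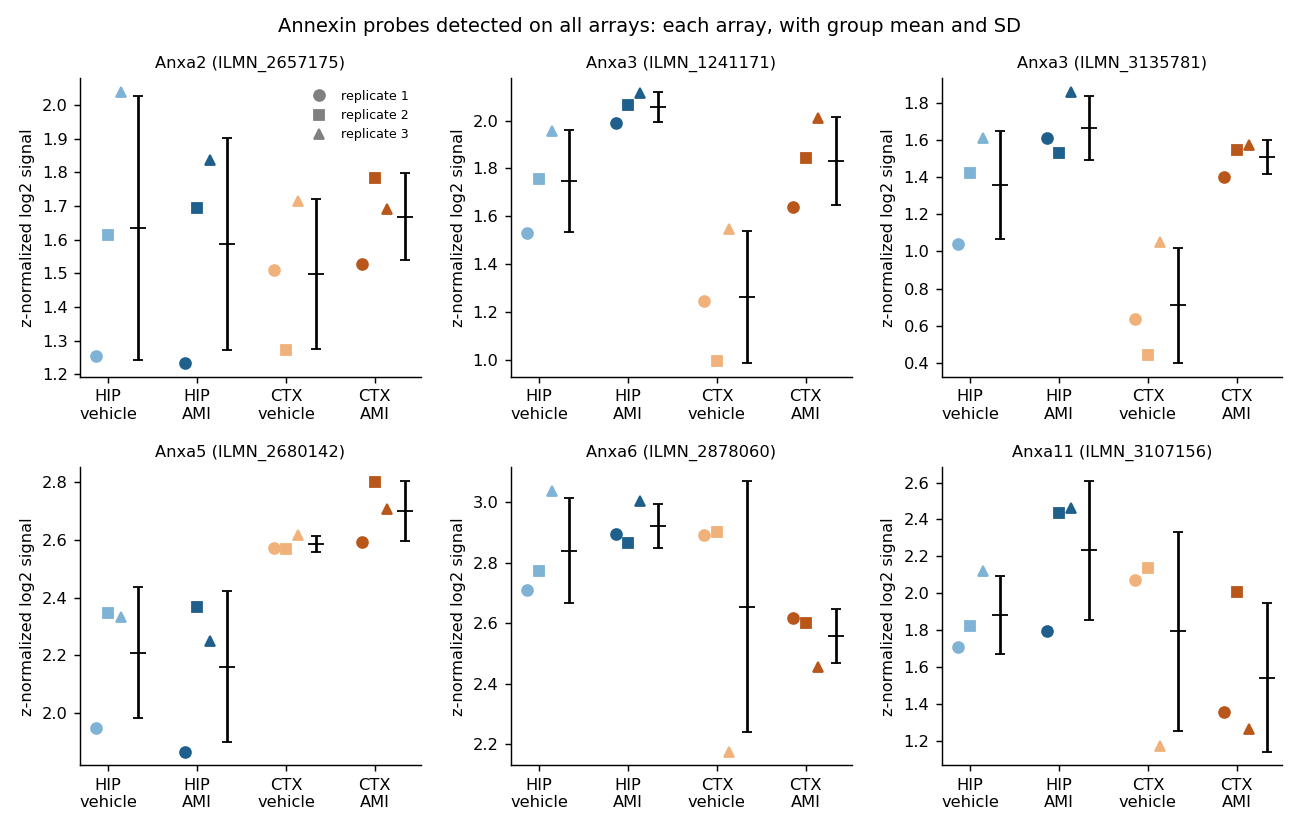
Each panel plots 1 annexin probe, with z-normalized log2 signal on the vertical axis and the 4 groups of hippocampal (HIP) and cortical (CTX) arrays on the horizontal axis. Points are single arrays, marked by replicate number, and bars give the mean and SD of 3 arrays. The AMI arrays of both Anxa3 probes lie above the vehicle arrays in the cortex, Anxa5 is lower on every hippocampal than on every cortical array, and Anxa6 and Anxa11 are low on cortical vehicle replicate 3.

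Anxa3, an annexin known from neutrophils and from microglia, read higher after AMI in both tissues, which is how it was chosen. In the cortex ILMN_1241171 read 1.25, 0.996 and 1.55 on vehicle replicates 1, 2 and 3, and 1.64, 1.84 and 2.01 on AMI replicates 1, 2 and 3. Every AMI array lay above every vehicle array, and the means differed by 0.57 (SE 0.16), or 1.48-fold. ILMN_3135781 read 0.64, 0.44 and 1.05 on the cortical vehicle arrays and 1.40, 1.54 and 1.57 on the AMI arrays. Here too the groups were apart, by 0.80 (SE 0.15) or 1.74-fold.

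In the hippocampus the Anxa3 difference was smaller and depended on the probe for its separation. ILMN_1241171 read 1.53, 1.76 and 1.96 on vehicle replicates 1, 2 and 3 and 1.99, 2.06 and 2.11 on the AMI replicates, so the groups touched closely without overlapping, at a difference of 0.31 (SE 0.12) or 1.24-fold. ILMN_3135781 read 1.04, 1.42 and 1.61 on the vehicle arrays and 1.61, 1.53 and 1.86 on the AMI arrays, with the same mean difference of 0.31 (SE 0.16) and overlapping groups. After median centring the groups of ILMN_1241171 overlapped as well, with a difference of 0.40. Vehicle replicate 3, the array with the high choroid plexus and meningeal markers, was the highest vehicle array for both probes, and without it the differences were 0.41 and 0.43 with both probes apart. Without vehicle replicate 1, the lowest vehicle array, they were 0.20 and 0.15, and ILMN_3135781 overlapped.

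Whether Anxa3 differed more in the cortex than in the hippocampus could not be settled at this number of arrays. The hippocampal difference minus the cortical one was -0.26 (SE 0.21) for ILMN_1241171 and -0.49 (SE 0.24) for ILMN_3135781. In a limma fit of all 12 arrays 0 of 12430 probes passed an adjusted p of 0.05 for such a difference between tissues, and 377 (3.03%) had an unadjusted p under 0.05.

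With all arrays in, every annexin probe other than those of Anxa3 had overlapping AMI and vehicle groups in both tissues. Of the 6 probes tested, 1 had AMI arrays entirely above vehicle arrays in the hippocampus, against 4.38% of all probes tested there, and 2 did in the cortex, against 8.1%. All of these are Anxa3 probes, so nothing is read from the counts. ILMN_1241171 is 1 of 41 probes with AMI arrays entirely above in both tissues, or 0.33% of those tested in both. ILMN_3135781, which overlapped in the hippocampus, is not among them. Anxa3 was chosen for a higher mean in both tissues, so nothing is read from this share. The median difference of the 6 probes was 0.19 in the hippocampus and 0.14 in the cortex, beside medians of 0.01 and 0.02 over all probes tested. As 2 of the 6 are Anxa3 probes, nothing is read from these medians either. Anxa2, Anxa5, Anxa6 and Anxa11 differed by -0.05, -0.05, 0.08 and 0.35 in the hippocampus and by 0.17, 0.11, -0.10 and -0.25 in the cortex. With limma, 0 of 13163 probes in the hippocampus and 0 of 12944 in the cortex passed an adjusted p of 0.05 (0.0% in both), with 309 and 813 at an unadjusted p under 0.05 (2.35% and 6.28%). The methods' t-test gave 483 and 827 at the unadjusted threshold and 0 after adjustment.

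**Figure D2:**
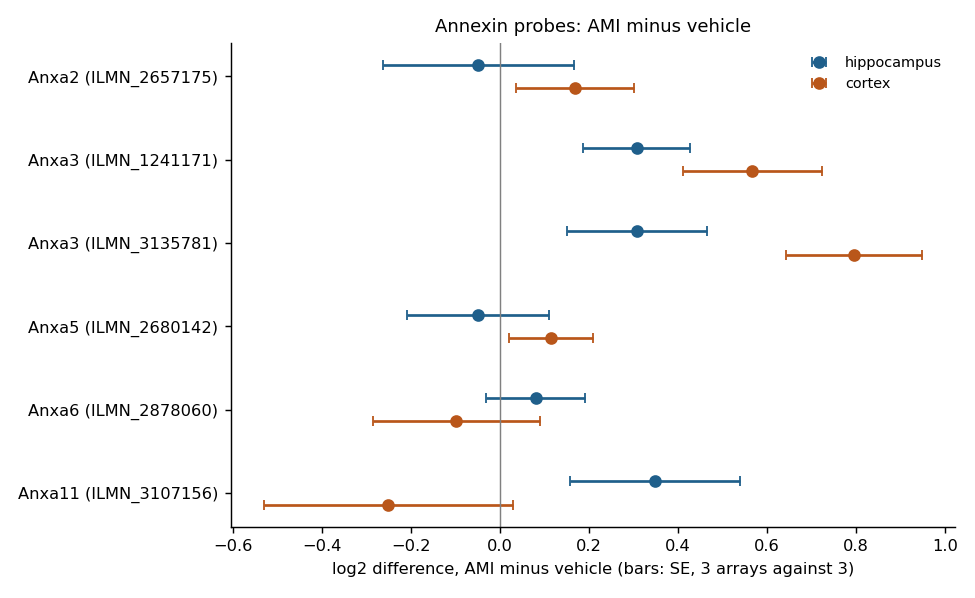
The plot gives the log2 difference between AMI and vehicle on the horizontal axis for each of the 6 detected annexin probes, in hippocampus and cortex, with bars for the SE of 3 arrays against 3. Both Anxa3 probes lie to the right of 0 in both tissues (0.31 and 0.31 in hippocampus, 0.57 and 0.80 in cortex), whereas Anxa11 lies at 0.35 in hippocampus and -0.25 in cortex.

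Anxa2, which pairs with S100a10 in a heterotetramer at the plasma membrane and binds plasminogen and its activators, had overlapping groups in both tissues. On hippocampal vehicle replicates 1, 2 and 3 it read 1.25, 1.61 and 2.04, and on the AMI replicates 1.23, 1.69 and 1.84. The groups spanned nearly the same range, with a difference of -0.05 (SE 0.22), which became 0.15 when vehicle replicate 3 was left out and -0.24 when vehicle replicate 1 was. In the cortex it read 1.51, 1.27 and 1.72 on the vehicle arrays and 1.53, 1.78 and 1.69 on the AMI arrays, a difference of 0.17 (SE 0.13). Without cortical vehicle replicate 3 it was 0.28 with the AMI arrays entirely above, and without vehicle replicate 2 it was 0.055.

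The highest Anxa2 reading of all 12 arrays was on hippocampal vehicle replicate 3, which also had the highest level of the meningeal and fibroblast markers, 2.11. The lowest 3 readings, 1.23, 1.25 and 1.27, were on hippocampal AMI replicate 1, hippocampal vehicle replicate 1 and cortical vehicle replicate 2, where those markers averaged 0.87, 0.98 and 0.80. The second highest reading, 1.84, was on hippocampal AMI replicate 3, where they averaged 0.92. The part of these cells in the Anxa2 signal was not tested.

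**Figure D3:**
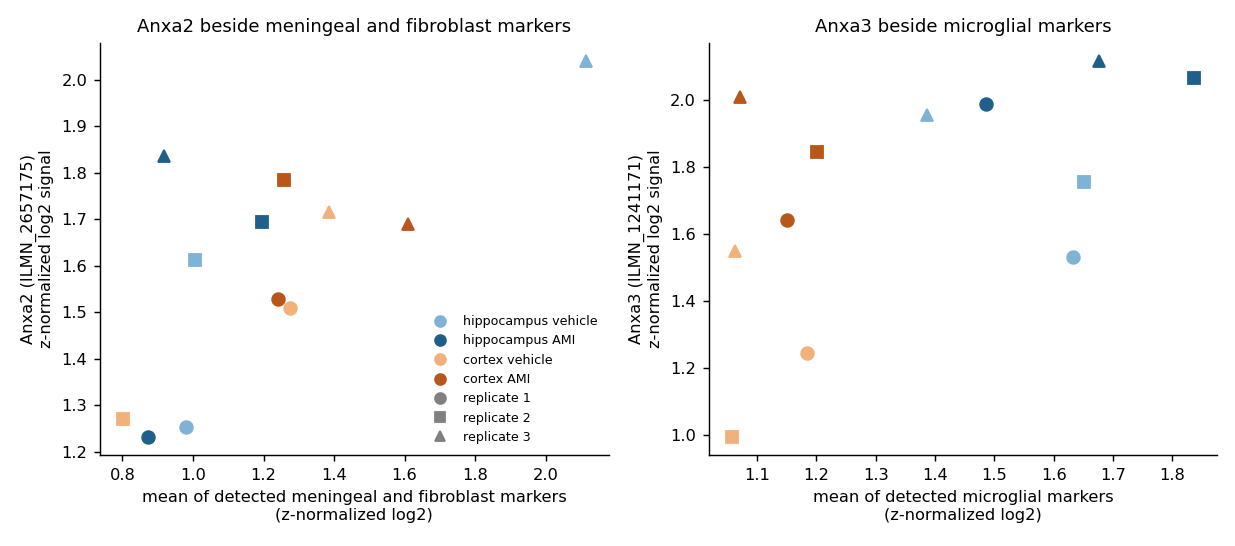
The left panel plots the z-normalized log2 signal of Anxa2 (vertical axis) against the mean of the 6 detected meningeal and fibroblast markers (horizontal axis), and the right panel plots Anxa3 (ILMN_1241171) against the mean of the 12 detected microglial markers, 1 point per array. Hippocampal vehicle replicate 3 lies at the top right of the left panel (2.04 and 2.11), and in the right panel the cortical arrays lie between 1.06 and 1.20 of microglial markers and the hippocampal arrays between 1.39 and 1.84.

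The marker lists were also read between AMI and vehicle. The microglial list (12 of 14 detected, without Itgam and Fcrls) averaged 1.06 to 1.18 on cortical vehicle arrays and 1.07 to 1.20 on cortical AMI arrays, ranges that overlap. In the hippocampus it averaged 1.39 to 1.65 on vehicle and 1.49 to 1.84 on AMI arrays, again overlapping. The meningeal and fibroblast list averaged 0.80 to 1.39 on cortical vehicle and 1.24 to 1.61 on cortical AMI arrays. All 6 of its tested genes had a higher mean after AMI there, beside 7388 of 12944 probes, with a median difference of 0.22. On hippocampal arrays that list averaged 0.98 to 2.11 on vehicle and 0.87 to 1.19 on AMI arrays. There 1 of its 5 tested genes had a higher mean after AMI, beside 7244 of 13163 probes, with a median difference of -0.47. In the hippocampus the 8 oligodendrocyte markers averaged 3.58 to 4.07 on vehicle and 3.25 to 3.61 on AMI arrays, and all 8 had a lower mean after AMI, with a median difference of -0.46 and 4 at an unadjusted p under 0.05 by limma, beside 2.35% of all probes. The part of these cells in the Anxa3 differences was not tested.

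Anxa5, which binds phosphatidylserine on the surface of dying cells and is used to label them, differed little between treatments. In the hippocampus it read 1.95, 2.35 and 2.33 on vehicle replicates 1, 2 and 3 and 1.86, 2.37 and 2.25 on the AMI replicates. Replicate 1 was the low array of both treatments, and the means differed by -0.05 (SE 0.16). In the cortex it read 2.57, 2.57 and 2.62 on vehicle and 2.59, 2.80 and 2.71 on AMI arrays, a difference of 0.11 (SE 0.09). Leaving out single arrays moved the hippocampal difference between -0.18 and 0.10 (0.01 without vehicle replicate 3), and without cortical vehicle replicate 3 the cortical one was 0.13, with the AMI arrays entirely above.

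Anxa6, a member with a duplicated core that is found on endosomes and binds cholesterol-rich membranes, had overlapping groups in both tissues. It read 2.71, 2.77 and 3.04 on hippocampal vehicle arrays and 2.89, 2.87 and 3.00 on AMI arrays, a difference of 0.08 (SE 0.11) that became 0.18, with the AMI arrays entirely above, without vehicle replicate 3 and 0.02 without vehicle replicate 1. In the cortex vehicle replicates 1 and 2 read 2.89 and 2.90 and vehicle replicate 3 read 2.17, below the AMI arrays at 2.62, 2.60 and 2.46. The cortical difference was -0.10 (SE 0.19) and, without vehicle replicate 3, -0.34 with the AMI arrays entirely below. Without vehicle replicate 1 or vehicle replicate 2 it turned to 0.02 and 0.03.

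Anxa11, which binds S100a6 and tethers RNA granules to lysosomes, had differences of opposite sign in the tissues, with overlapping groups in both. In the hippocampus it read 1.71, 1.82 and 2.12 on vehicle replicates and 1.80, 2.44 and 2.46 on AMI replicates, a difference of 0.35 (SE 0.19). With the replicate number as a block the SE was 0.11 (adjusted p = 0.584 by limma), and without AMI replicate 1 the difference was 0.57 with the AMI arrays entirely above. In the cortex it read 2.07, 2.13 and 1.17 on vehicle and 1.36, 2.004 and 1.26 on AMI arrays, a difference of -0.25 (SE 0.28). The low vehicle array was again replicate 3, and without it the cortical difference was -0.56, with the groups apart. Without cortical vehicle replicate 1 or 2, or AMI replicate 1 or 3, it lay between -0.16 and -0.08, and without AMI replicate 2 it was -0.48. The difference between the tissues was 0.60 (SE 0.38), with an adjusted p of 0.9999 in the limma fit.

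Hippocampal arrays that share a replicate number also shared deviations from their group means (correlations of 0.61, 0.30 and 0.29 over the tested probes). AMI replicate 3 with vehicle replicate 2 (0.28) and AMI replicate 2 with vehicle replicate 3 (0.17) did so as well. The remaining correlations, each with a replicate 1 array, lay between -0.47 and -0.33. Only replicate 1 stood out as a pair, so the differences by number are a description. For Anxa3 the AMI array lay above the vehicle array of its number in all 3 cases. The differences were 0.46, 0.31 and 0.16 with ILMN_1241171, whose groups do not overlap, so that any pairing gives this sign. They were 0.57, 0.11 and 0.25 with ILMN_3135781. Anxa3 was chosen for a higher mean after AMI, so nothing is read from these signs. The AMI array of Anxa11 also lay above the vehicle array of its number, by 0.09, 0.62 and 0.34. Anxa2 differed by -0.02, 0.08 and -0.20, Anxa5 by -0.08, 0.02 and -0.08, and Anxa6 by 0.18, 0.09 and -0.03, each with both signs. With the number as a block, 1063 hippocampal probes had an unadjusted p under 0.05 (8.08%) and 0 passed the adjusted threshold with limma.

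**Figure D4:**
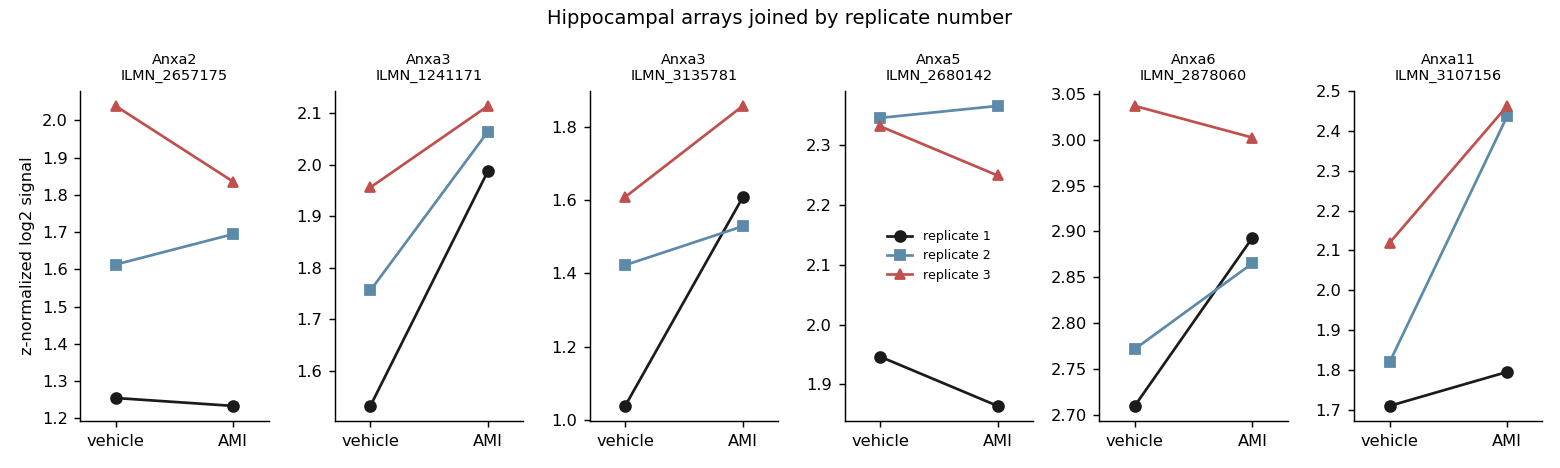
Each panel plots the z-normalized log2 signal of 1 annexin probe (vertical axis, own scale) on hippocampal vehicle and AMI arrays (horizontal axis), with lines joining the arrays of one replicate number. All 3 lines slope upward for Anxa11 and for both probes of Anxa3, which was chosen for a higher mean after AMI. Replicate 1 is the lowest line of Anxa2, Anxa5, Anxa11 and Anxa3 ILMN_1241171 under both treatments.

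Between the tissues, the annexins were compared with limma over 12430 probes detected in both, within vehicle mice and within AMI mice. Hippocampal and cortical arrays come from separate tables made with different array software (BeadStudio for hippocampus, GenomeStudio for cortex), so tissue and table cannot be told apart. In vehicle mice 2 of 6 annexin probes passed an adjusted p of 0.05, beside 24.9% of all probes, and in AMI mice 1 of 6 did, beside 26.1%. At such a background these shares are not a result about the family.

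Both Anxa3 probes read higher in the hippocampus than in the cortex of vehicle mice, by 0.48 (SE 0.15, adjusted p = 0.0303) and 0.65 (SE 0.17, adjusted p = 0.0135) in the limma fit. The groups nevertheless overlapped, since cortical vehicle replicate 3 (1.55 and 1.05) lay above hippocampal vehicle replicate 1 (1.53 and 1.04). Neither probe passed without cortical vehicle replicate 2, at differences of 0.35 and 0.51, or without hippocampal vehicle replicate 3, at 0.38 and 0.52, and ILMN_1241171 did not pass without cortical vehicle replicate 1 or hippocampal vehicle replicate 2 either. In AMI mice the differences were 0.22 (SE 0.15) and 0.16 (SE 0.17), with adjusted p of 0.291 and 0.529. The vehicle arrays also entered the values by which Anxa3 was chosen.

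The microglial list was also higher in the hippocampus. It averaged 1.39 to 1.65 on hippocampal and 1.06 to 1.18 on cortical vehicle arrays, and 7 of its 12 tested genes were called higher in the hippocampus of vehicle mice (24.9% of all probes were called in either direction), with a median difference of 0.53. In AMI mice, where the Anxa3 differences did not pass the threshold, 5 of 12 were called higher (26.1% of all probes in either direction), with a median of 0.45. Among hippocampal vehicle arrays the list was lowest (1.39) on replicate 3, where ILMN_1241171 was highest (1.96). Among hippocampal AMI arrays both were lowest on replicate 1 (1.49 and 1.99). Of the meningeal and fibroblast list, 2 of 5 tested genes were called higher in the hippocampus of vehicle mice, beside the same 24.9%, with a median of 0.59. In AMI mice 3 of 5 were called, 2 higher and 1 lower in the hippocampus, beside 26.1% of all probes, with a median of -0.20. Of the hippocampal vehicle arrays, replicate 3 averaged 2.11 in this list and replicates 1 and 2 averaged 0.98 and 1.01. The part of either cell type in the Anxa3 difference was not tested.

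Anxa5 was lower on every hippocampal array than on every cortical array of the same treatment, as 40.1% of probes were apart in either direction in vehicle and 41.5% in AMI mice. The difference was -0.54 (SE 0.14, adjusted p = 0.0123) in AMI mice and -0.38 (SE 0.14, adjusted p = 0.0620) in vehicle mice by limma. Median centring, under which the median tissue difference of all probes was 0.22 in AMI and 0.21 in vehicle mice, left -0.17 (adjusted p = 0.690) and -0.02 (adjusted p = 0.971) with overlapping groups. In vehicle mice the difference passed the threshold with quantile normalization (-0.38, adjusted p = 0.0234), with neqc (-0.41, adjusted p = 0.0361) and without hippocampal AMI replicate 1, which entered the shared estimate of spread (adjusted p = 0.0273). The endothelial markers (7 of 11 detected, without Kdr, Esam, Cdh5 and Abcb1a) averaged 0.84 to 0.97 on hippocampal and 0.95 to 1.40 on cortical vehicle arrays, and 0.91 to 1.07 and 1.20 to 1.22 on AMI arrays. Their median tissue difference was -0.21 in vehicle and -0.22 in AMI mice. Other lists were lower in the hippocampus too: oligodendrocytes (-0.22 and -0.48), neurons (-0.28 and -0.30) and astrocytes (-0.15 and -0.06). The microglial list was higher (0.53 and 0.45). The part of any of these cells in the Anxa5 difference was not tested.

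With all arrays and z normalization Anxa6 and Anxa11 did not pass the threshold between tissues, and Anxa2 had differences of 0.14 (SE 0.20) in vehicle and -0.08 (SE 0.20) in AMI mice. In AMI mice Anxa6 was higher on all hippocampal arrays than on all cortical arrays, by 0.36 (SE 0.17, adjusted p = 0.127), and Anxa11 was higher on average by 0.69 (SE 0.27, adjusted p = 0.0751) with overlapping groups. Both were called by limma without cortical vehicle replicate 3 (adjusted p of 0.0172 and 0.0260). That array entered only the shared estimate of spread, so the differences stayed at 0.36 and 0.69 while the SE fell to 0.10 and 0.21. Anxa11 was also called without cortical AMI replicate 2 (0.92) or hippocampal AMI replicate 1 (0.91), or with quantile normalization (0.68, adjusted p = 0.0466). In vehicle mice the differences were 0.18 (SE 0.17) for Anxa6 and 0.09 (SE 0.27) for Anxa11, and they became -0.06 and -0.22 without cortical vehicle replicate 3, whose readings of both genes were low.

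**Figure D5:**
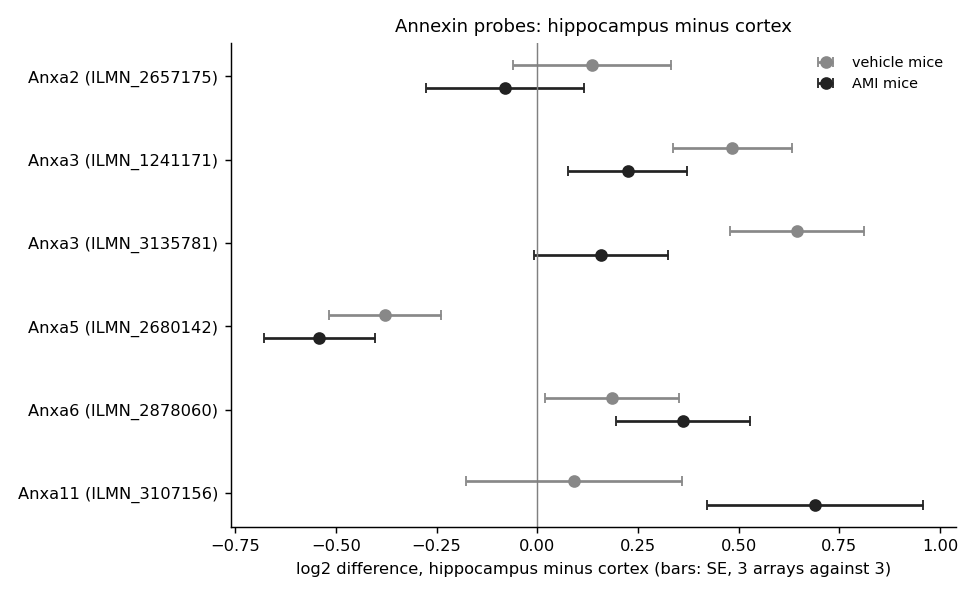
The plot gives the log2 difference between hippocampus and cortex on the horizontal axis for each of the 6 detected annexin probes, in vehicle and in AMI mice, with bars for the SE of 3 arrays against 3. The Anxa3 probes lie at 0.48 and 0.65 in vehicle mice and at 0.22 and 0.16 in AMI mice, and Anxa5 lies below 0 in both (-0.38 and -0.54).

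Annexin partners were taken from a list of 40 genes that bind annexins or share their pathways, of which 38 were on the array and 25 were tested. Under AMI limma called 0 of 25 at an adjusted p of 0.05, in the hippocampus and in the cortex alike, and the median difference was 0.00 in the hippocampus and 0.10 in the cortex. At an unadjusted p under 0.05 there were 0 and 2. In the cortex Plau (urokinase, a plasminogen activator), Pla2g4b (a cytosolic phospholipase), Tsg101 (an endosomal sorting protein) and Capn1 (a calcium-dependent protease) had AMI arrays entirely above vehicle arrays, or 4 of 25 beside 8.1% of all probes, by 0.30, 0.24, 0.20 and 0.12. The cortical AMI arrays of Gas6, a bridging ligand for phosphatidylserine, lay entirely below, by -0.17. In the hippocampus Egfr was apart and higher by 0.21 and Itgb5 apart and lower by -0.20, where 7.89% of probes were apart in either direction (12.2% in the cortex). No partner was apart in the same direction in both tissues.

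The S100 partners differed between treatments by less than the spread between arrays. S100a10, also called p11, the Anxa2 partner studied for its part in responses to antidepressants, differed by -0.03 (SE 0.09) in the hippocampus and by 0.10 (SE 0.15) in the cortex. S100a11, a partner of Anxa1, differed by 0.04 (SE 0.21) and 0.17 (SE 0.19), and S100a6, a partner of Anxa11, by 0.03 (SE 0.18) and 0.12 (SE 0.23). Adjusted p by limma lay between 0.927 and 0.9996 for all of these, and the groups overlapped.

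Between tissues in vehicle mice, 3 of the 25 partners were called, beside 24.9% of all probes, so the count is not a result about the partners. All 3 were higher in the hippocampus: Itgb5, the integrin subunit that pairs with alpha V, by 0.57 (SE 0.13, adjusted p = 0.0065), S100b, an astrocytic S100 protein, by 0.49 (SE 0.12, adjusted p = 0.0122), and Capn1 by 0.40 (SE 0.10, adjusted p = 0.0143), by limma. In AMI mice 3 of 25 were called, beside 26.1% of all probes. Itgb5 and S100b were called again, by 0.45 (adjusted p = 0.0226) and 0.54 (adjusted p = 0.0070), and Plau was lower in the hippocampus by -0.27 (adjusted p = 0.0427). S100a10 was apart and higher in the hippocampus of vehicle mice by 0.33 (SE 0.13), at an adjusted p of 0.0755.

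The genes whose readings ran most like Anxa3 (ILMN_1241171) over the 12 arrays, each tissue centred on its own mean, were Gzf1, Mrpl9, Snrk, Arid5b and Col4a3bp, with Pearson r between 0.88 and 0.89, of 9469 genes ranked. The points share arrays and their depth, and the AMI groups of Anxa3 were chosen to differ, so these values are a description. The other Anxa3 probe had an r of 0.96. Among the annexins Anxa2 came at rank 499 (r = 0.60) and Anxa5 at rank 1490 (r = 0.43), whereas Anxa11 and Anxa6 ran with r of -0.17 and -0.31. By this tissue-centred measure no other annexin was among the 5 genes most like Anxa3. With each of the 4 groups centred on its own mean instead, r was 0.80 for Anxa2 and 0.51 for Anxa5. It was -0.24 for Anxa11 and -0.43 for Anxa6. The 5 named genes then lay between 0.68 and 0.88, and genes were not ranked by this second measure.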

How the data were processed

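In 1 table per tissue the authors deposited linear bead signals (intensities without normalization or background subtraction) together with the detection p-values of each array. The submitters' processing notes name BeadStudio 3.4 and GenomeStudio 1.1.1. The deposited intensities were turned into log2 values, which were z-normalized per array after the methods and returned to a log2 scale with 1 SD common to the 12 arrays (1.60). A probe was tested where its detection p was at most 0.05 on 3 or more of a tissue's 6 arrays, and in both tissues where these were compared. Tests used lmFit and eBayes of limma 3.58.1 (R 4.3.3) with Benjamini-Hochberg adjustment over all tested probes, on the 6 arrays of a tissue for AMI and on all 12 otherwise. The scripts were tested on simulated data. The median residual SD was 0.138 (hippocampus) and 0.141 (cortex), and the number of arrays limits the precision, as an exact permutation test of 3 against 3 cannot give a p under 0.1.

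The annexins, partner and marker lists were chosen with earlier results of these data known. Named are all annexins, S100a10, S100a11 and S100a6, partners apart in one direction in both tissues, the 5 partners with the largest called tissue difference in vehicle mice (3 were called), and the 5 genes most like Anxa3. Other partners with separate groups were named after their values were seen. A gene outside the family is read by its probe with the highest mean signal. RefSeq gene tables hold all 8 annexins, and no protein sequences were used here. Deviations of arrays with the same number in the labels correlated at 0.61, 0.30 and 0.29 for hippocampus and at -0.06, 0.33 and 0.33 for cortex. Arrays of different numbers reached 0.28 and 0.27, so pairs beyond hippocampal replicate 1 are not settled. Differences by number are given for the hippocampus as a description, and the tests above used no pairs. Alternatives were quantile normalization, median centring, neqc, other detection filters, the replicate block, 1 fit for AMI in both tissues, the methods' t-test and leaving out each array.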

Additional observations from a re-analysis of the deposited data

How the results depend on the processing

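The Anxa3 differences between AMI and vehicle stayed above 0 under every alternative run. Anxa3 was chosen for a higher mean after AMI in both tissues, so nothing is read from this sign. Leaving out single arrays gave 0.20 to 0.41 for ILMN_1241171 and 0.15 to 0.43 for ILMN_3135781 in the hippocampus. In the cortex it gave 0.43 to 0.71 and 0.66 to 0.97. Probes at an adjusted p under 0.05 for AMI were 2 in the cortex with neqc, and 0 to 1 in each tissue without single arrays (1 without cortical AMI replicate 3, 1 without hippocampal AMI replicate 2). The replicate block changed no call at the adjusted threshold for AMI (0 probes in either tissue), and the random block for numbers shared by the tissues left 2 annexin probes called in vehicle mice and 1 in AMI mice; the fitted correlation was -0.02. Between tissues, leaving out single arrays gave 0 to 3 called annexin probes in vehicle mice and 1 to 3 in AMI mice, and 2179 to 3412 and 1947 to 3773 called probes in all. In AMI mice median centring left 0 called annexin probes and quantile normalization 2 (Anxa5 and Anxa11). Tissue differences that changed sign, none of them called, were those of Anxa2 in AMI mice with median centring (0.21) and, over single arrays left out, of Anxa2 in vehicle mice (-0.065 to 0.33, negative without hippocampal vehicle replicate 3) and AMI mice (-0.20 to 0.10, positive without hippocampal AMI replicate 1), of Anxa6 in vehicle mice (-0.055 to 0.31, negative without cortical vehicle replicate 3), and of Anxa11 in vehicle mice (-0.22 to 0.26, negative without cortical or hippocampal vehicle replicate 3). The cause of these changes was not tested beyond the array or scaling named. Signals close to that of undetected probes limit the readings of Anxa1, Anxa4, Anxa7 and ILMN_2666669.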
